A study of Mus musculus with 6 samples.

Results

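Neurexins, neuroligins and leucine-rich repeat transmembrane neuronal proteins (LRRTMs) were examined in the embryonic brain of mice with and without BAHD1, a scaffold protein of repressive chromatin. The set held 9 genes, taken by symbol from a table of 53801 genes: the neurexins Nrxn2 and Nrxn3, the neuroligins Nlgn1, Nlgn2 and Nlgn3, and Lrrtm1, Lrrtm2, Lrrtm3 and Lrrtm4. Polyadenylated RNA of the whole brain was sequenced in 6 C57BL/6 embryos at stage E16.5. The 3 Bahd1-KO embryos were homozygous for the knockout allele (Bahd1-/-), the 3 Bahd1-WT embryos were wild type (Bahd1+/+), and no other allele or treatment is given. Both genotypes came from matings of heterozygous mice of 1 mutant line. The comparison asked whether these adhesion genes differed with the loss of BAHD1 before birth.

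Neurexins are presynaptic receptors that reach across the synaptic cleft. Neuroligins and LRRTMs are postsynaptic membrane proteins that bind neurexins from the other side, neuroligins with a cholinesterase-like domain and LRRTMs with leucine-rich repeats. Such pairs help to organise synapses: neuroligin-2, the product of Nlgn2, is found mainly at inhibitory synapses, neuroligin-1 and the LRRTMs mainly at excitatory synapses, and neuroligin-3 at both. At this stage neurons are still being born and few synapses have formed.

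The 9 genes differed in base composition, which is set out first because their levels in the embryos followed it. The GC content of the longest annotated transcript was 62.4% for Nrxn2, 60.7% for Nlgn2 and 54.7% for Lrrtm1. Nlgn3 had 49.3%, Nrxn3 47.5% and Lrrtm3 44.5%. The lowest values were 38.9% for Nlgn1 and 38.4% each for Lrrtm2 and Lrrtm4. Both the neuroligins and the LRRTMs therefore spanned most of the range. In the coding sequence the share of codons with G or C at the third (wobble) position ran from 43.4% in Nlgn1 to 73.7% in Nlgn2 among the neuroligins. It was 77.1% in Nrxn2 and 63.1% in Nrxn3. Among the LRRTMs it was 78.0% in Lrrtm1, 63.7% in Lrrtm3, 58.4% in Lrrtm4 and 49.9% in Lrrtm2. Lrrtm4 and Lrrtm2 thus differed at the wobble position although their transcripts had the same GC content of 38.4%.

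A stretch of 90 coding bases shows this contrast where the neuroligin proteins are most alike. The stretches were found as the 30 codons within 1 exon whose encoded residues were most often shared within a family, with Lrrtm2 left out of the search. They are written 5′ to 3′ on the coding strand from GENCODE M21 transcripts of GRCm38, with capitals for each G or C at a wobble position. The neuroligin stretches lie in exon 7 of 8 of each transcript, at chr3:25436170-25436259 on the reverse strand (Nlgn1), chr11:69827061-69827150 on the reverse strand (Nlgn2) and chrX:101318312-101318401 on the forward strand (Nlgn3).
Nlgn1: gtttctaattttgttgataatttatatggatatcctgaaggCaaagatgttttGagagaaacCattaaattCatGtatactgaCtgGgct
Nlgn2: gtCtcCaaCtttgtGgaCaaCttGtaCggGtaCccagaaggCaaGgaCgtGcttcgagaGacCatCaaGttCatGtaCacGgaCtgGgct
Nlgn3: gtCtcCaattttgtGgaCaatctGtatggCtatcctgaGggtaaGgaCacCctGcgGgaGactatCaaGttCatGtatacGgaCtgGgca
All 30 residues were the same in Nlgn1 and Nlgn2, yet 21 of the 30 codons differed. G or C stood at 7 of 30 wobble positions in Nlgn1 and at 24 of 30 in Nlgn2. Nlgn3, with 20 of 30, shared 29 residues with Nlgn1.

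In the neurexins the contrast was smaller over such a stretch. It is shown for both genes from exon 15 of 22 of Nrxn2 (chr19:6492874-6492963, forward strand) and exon 13 of 20 of Nrxn3 (chr12:89512977-89513066, forward strand).
Nrxn2: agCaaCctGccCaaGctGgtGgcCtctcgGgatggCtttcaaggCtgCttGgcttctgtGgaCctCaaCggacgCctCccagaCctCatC
Nrxn3: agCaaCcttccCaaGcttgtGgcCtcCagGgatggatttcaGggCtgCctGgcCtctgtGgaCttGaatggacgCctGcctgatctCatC
All 30 residues were shared and 13 codons differed, with G or C at 22 of 30 wobble positions in Nrxn2 and 20 of 30 in Nrxn3. In the LRRTMs, stretches of Lrrtm1 and Lrrtm4 from exon 2 of each gene (chr6:77244129-77244218 and chr6:80022165-80022254, both on the forward strand) show a member of high and a member of low GC content.
Lrrtm1: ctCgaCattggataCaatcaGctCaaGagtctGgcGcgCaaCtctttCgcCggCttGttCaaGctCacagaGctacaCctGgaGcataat
Lrrtm4: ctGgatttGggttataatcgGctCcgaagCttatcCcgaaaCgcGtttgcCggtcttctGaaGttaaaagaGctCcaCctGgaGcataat
These shared 23 of 30 residues, and wobble positions held G or C in 21 codons of Lrrtm1 and 16 of Lrrtm4.

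Library totals ran from 61.7 to 91.8, in units of 1e6 counts. Bahd1 itself had 2 to 10 counts in the Bahd1-KO embryos and 1971 to 3470 in the Bahd1-WT embryos, with a log2 fold change of -8.40 (SE 0.606, adjusted p = 0.0462, edgeR). Bahd1-KO replicate 3 stood apart from the other 5 embryos, and fold changes are therefore given with and without it. Its 10 neuron markers, among them Tubb3, Map2 and Snap25, had a median log2 level of -2.56 relative to the mean of the others, although all 10 were detected in every embryo. Their summed level was 2543 to 9944 CPM in Bahd1-KO and 8775 to 10788 CPM in Bahd1-WT. CPM are counts per 1e6 counts of the library, here after scaling by TMM factors (trimmed mean of M-values). In Bahd1-KO replicate 3 the medians of 8 dividing-progenitor and 8 glial markers were -1.42 and -0.72 on the same log2 scale. Markers of mature brain (8 genes), meninges and connective tissue (6 genes), skeletal muscle (6 genes) and lung (6 genes) had medians of 3.97, 2.63, 4.13 and 9.54. The lung markers summed to 0.305 to 1432 CPM in Bahd1-KO and 0.533 to 0.693 CPM in Bahd1-WT, and the mature brain markers to 111 to 1634 CPM in Bahd1-KO and 113 to 222 CPM in Bahd1-WT. The sums were 361 to 2567 against 327 to 434 CPM for meninges and connective tissue, and 2.27 to 78.4 against 4.04 to 11.6 CPM for muscle. Sftpc, Sftpd and Mog were at 0 counts in at least 1 embryo. Microglial and endothelial markers stood at 0.67 and 0.91. The 6 blood markers differed between embryos of both genotypes, at -1.22, 1.13 and 0.51 across Bahd1-KO replicates 1 to 3 and -1.34, 0.18 and 0.95 across Bahd1-WT replicates 1 to 3. The part of these differences in the results below was not tested.

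All 9 genes were detected in every embryo, with 313 to 25168 counts, and all 9 entered the test. Levels are again given as CPM after scaling by TMM factors. To compare genes, they are divided by the length of all annotated exons of the gene in kb. On this scale Nlgn2 was the highest of the 9, at 27.2 ± 12.997 CPM per kb (SD, n = 6 embryos). Nrxn2, Lrrtm2 and Nrxn3 followed at 11.1 ± 7.20, 11.1 ± 3.72 and 10.9 ± 1.75 CPM per kb. Nlgn3, Lrrtm1 and Nlgn1 had 7.60 ± 2.10, 6.90 ± 2.81 and 6.59 ± 1.84 CPM per kb, Lrrtm3 5.61 ± 0.866 and Lrrtm4 4.39 ± 1.25. Neighbours in this order had overlapping ranges in each of the 8 steps. Within the embryos, Nlgn2 exceeded Nrxn2, Nrxn3 exceeded Nlgn3 and Lrrtm3 exceeded Lrrtm4 in 6 of 6 embryos, whereas Nrxn2 exceeded Lrrtm2 in 3 and Lrrtm2 exceeded Nrxn3 in 2. Nrxn2 moved most in rank, from second of the 9 in Bahd1-KO replicate 2 and Bahd1-WT replicates 2 and 3 to sixth in Bahd1-WT replicate 1 and ninth in Bahd1-KO replicates 1 and 3. Lengths per gene are a limit here, because 3 to 18 transcripts are annotated for these loci (18 for Nrxn2) and the counts do not separate the long and short neurexin forms or splice variants. With the length of the longest transcript instead, Nrxn2 and Nrxn3 stood at 23.0 and 17.3 CPM per kb and Nlgn2 was again first at 28.3, while Lrrtm3 exceeded Lrrtm4 in 3 embryos, with means of 6.12 and 6.09.

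**Figure D1:**
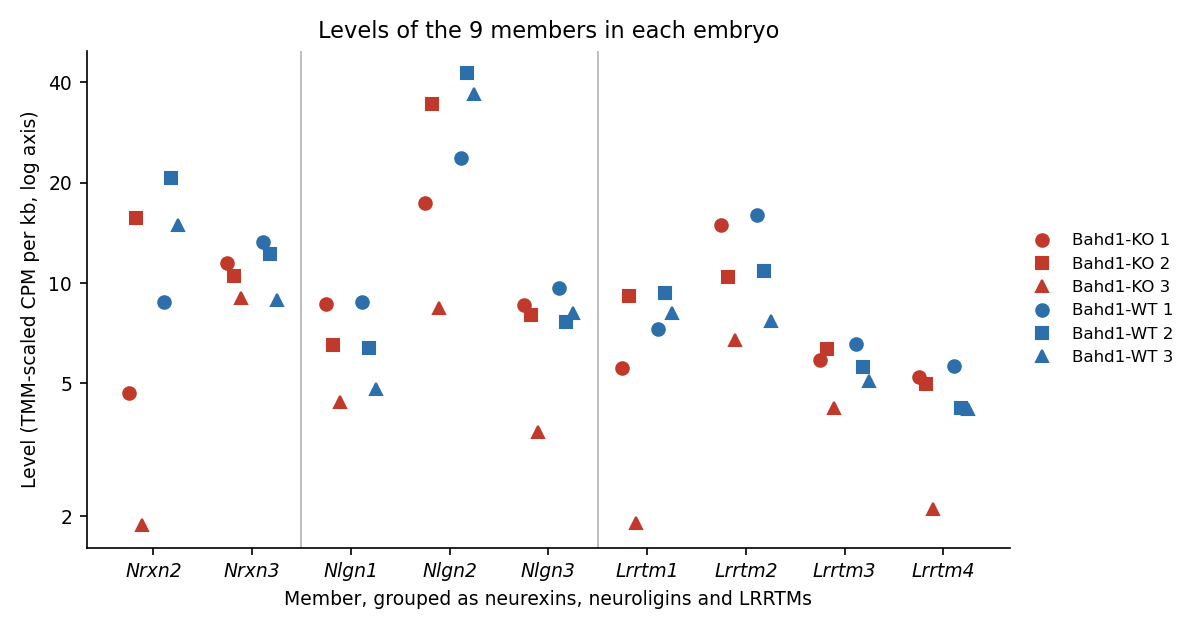
Level of each of the 9 genes in each of the 6 embryos, in TMM-scaled CPM per kb of annotated exon on a log axis, with red for Bahd1-KO, blue for Bahd1-WT and a marker shape for the replicate number. Nlgn2 is highest in 5 of 6 embryos, and the red triangles of Bahd1-KO replicate 3 are the lowest point of every gene but Nrxn3, whose lowest point, 8.89, is Bahd1-WT replicate 3.

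No gene of the set passed an adjusted p of 0.05 between the genotypes (0 of 9, edgeR), and none had an unadjusted p under 0.05. The background was 0.00404% of 24739 genes tested, which was Bahd1 alone. All 9 fitted log2 fold changes lay below 0, as did 46.2% of all genes tested. Their median was -0.19, against 0.06 over all genes. Without Bahd1-KO replicate 3, 5 of 9 lay below 0 (50.8% of all genes), with a median of -0.04 against -0.01 over all genes, and again 0 of 9 passed (0.0171% of 23334 genes). In no gene did all Bahd1-KO embryos lie below all Bahd1-WT embryos, a pattern that 2.24% of all genes showed. In brain tissue sequenced in bulk, fewer cells of a type and less RNA per cell cannot be told apart.

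Nrxn2 (ENSMUSG00000033768, chromosome 19, 6418731 to 6544169, GRCm38) varied most of all, with levels given in the order of the replicate numbers. It had 64.9, 217 and 25.9 CPM across Bahd1-KO replicates 1 to 3 and 121, 285 and 207 CPM across Bahd1-WT replicates 1 to 3. Bahd1-KO replicates 1 and 3 lay below every Bahd1-WT embryo, while Bahd1-KO replicate 2 lay within the Bahd1-WT range. The mean was 103 ± 101 CPM in Bahd1-KO and 204 ± 82.4 CPM in Bahd1-WT (SD, n = 3 each), with a log2 fold change of -0.99 (SE 0.733, adjusted p = 0.696, edgeR). Without Bahd1-KO replicate 3 it was -0.53 (SE 0.530, adjusted p = 0.981). Even among the other 5 embryos the highest Nrxn2 level was 4.40 times the lowest, with Bahd1-WT replicate 1 below Bahd1-KO replicate 2.

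Nrxn3 (ENSMUSG00000066392, chromosome 12, 88722876 to 90334935) encodes a paralog of the same receptor and spread far less. Its levels were 144, 132 and 114 CPM across Bahd1-KO replicates 1 to 3 and 167, 154 and 112 CPM across Bahd1-WT replicates 1 to 3, so that the genotypes overlapped and Bahd1-KO replicate 3 was not the lowest. This gave a log2 fold change of -0.15 (SE 0.250, adjusted p = 0.842, edgeR). Bahd1-KO replicate 3 held 80.2% of the mean Nrxn3 level of the other embryos, but 14.5% of their mean Nrxn2 level.

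Among the postsynaptic neuroligins, Nlgn2 (ENSMUSG00000051790, chromosome 11, 69823122 to 69837784) showed the same low embryos as Nrxn2. It had 100, 199 and 48.6 CPM across Bahd1-KO replicates 1 to 3 and 138, 246 and 214 CPM across Bahd1-WT replicates 1 to 3. Again Bahd1-KO replicates 1 and 3 were below all Bahd1-WT embryos and Bahd1-KO replicate 2 was not. The mean was 116 ± 76.2 CPM in Bahd1-KO and 199 ± 55.8 CPM in Bahd1-WT, and the log2 fold change of -0.78 (SE 0.510, adjusted p = 0.696, edgeR) became -0.42 (SE 0.358, adjusted p = 0.981) without Bahd1-KO replicate 3.

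Nlgn1 (ENSMUSG00000063887, chromosome 3, 25426215 to 26332460) showed another order. It had 116, 87.6 and 59.0 CPM across Bahd1-KO replicates 1 to 3 and 118, 85.8 and 64.7 CPM across Bahd1-WT replicates 1 to 3. Replicate 1 of both genotypes was high and replicate 3 of both was low, and the means of 87.6 ± 28.6 and 89.3 ± 26.6 CPM differed by far less than this spread. Its fitted log2 fold change stood at -0.03 (SE 0.343, adjusted p = 0.981, edgeR), and 0.17 (SE 0.279) without Bahd1-KO replicate 3.

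Nlgn3 (ENSMUSG00000031302, chromosome X, 101299168 to 101325963), which lies between these in GC content, had 79.9, 74.2 and 33.2 CPM across Bahd1-KO replicates 1 to 3 and 89.7, 70.8 and 75.2 CPM across Bahd1-WT replicates 1 to 3. Apart from Bahd1-KO replicate 3, at 42.5% of the mean of the others, its embryos lay within 1.27-fold of each other. The log2 fold change of -0.33 (SE 0.358, adjusted p = 0.757, edgeR) was -0.04 (SE 0.198) without that embryo.

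Of the LRRTMs, Lrrtm1 (ENSMUSG00000060780, chromosome 6, 77242689 to 77257791) was the member of high GC content. It had 16.8, 27.7 and 5.80 CPM across Bahd1-KO replicates 1 to 3 and 22.1, 28.4 and 24.7 CPM across Bahd1-WT replicates 1 to 3, with Bahd1-KO replicates 1 and 3 below every Bahd1-WT embryo. The fit gave a log2 fold change of -0.58 (SE 0.521, adjusted p = 0.717, edgeR), and -0.18 (SE 0.284) without Bahd1-KO replicate 3.

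Lrrtm2 (ENSMUSG00000071862, chromosome 18, 35209003 to 35215024) had 89.8, 62.8 and 40.7 CPM across Bahd1-KO replicates 1 to 3 and 96.1, 65.5 and 46.2 CPM across Bahd1-WT replicates 1 to 3. This was the order of Nlgn1, high in replicate 1 and low in replicate 3 of both genotypes. Lrrtm3 (ENSMUSG00000042846, chromosome 10, 63928472 to 64090277) spread least among the LRRTMs, with 25.0, 27.0 and 17.9 CPM in Bahd1-KO and 27.9, 23.8 and 21.6 CPM in Bahd1-WT. Lrrtm4 (ENSMUSG00000052581, chromosome 6, 80018877 to 80810143) had 32.1, 30.6 and 12.9 CPM across Bahd1-KO replicates 1 to 3 and 34.6, 25.9 and 25.8 CPM across Bahd1-WT replicates 1 to 3. In all 3 genes Bahd1-KO replicate 3 alone lay below the Bahd1-WT range. Their log2 fold changes were -0.10, -0.07 and -0.19 (SE 0.388, 0.269 and 0.384, adjusted p = 0.930, 0.935 and 0.872, edgeR), and 0.12, 0.08 and 0.11 without that embryo.

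**Figure D2:**
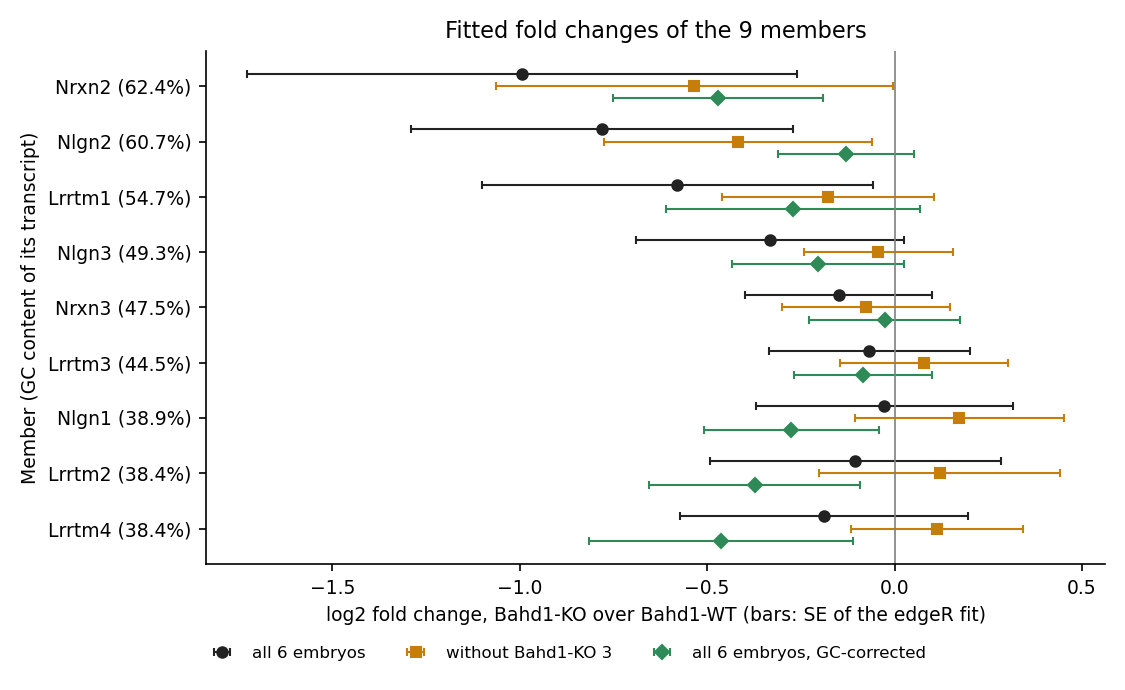
Fitted log2 fold changes of the 9 genes, Bahd1-KO over Bahd1-WT, with bars of 1 SE from edgeR, for all 6 embryos, without Bahd1-KO replicate 3, and after a lowess correction for the GC content of genes in each embryo. The correction curve kept the overall level of each embryo, so the corrected values reflect more than GC content. Genes run from the highest GC content at the top to the lowest at the bottom, and the black points move from -0.99 for Nrxn2 to values between -0.19 and -0.03 for the 4 genes at the bottom.

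The fold changes were ordered largely by GC content. Over the 9 genes the Pearson correlation of GC content with the fitted log2 fold change was -0.93, and -0.97 without Bahd1-KO replicate 3. These are descriptions over genes that share the same 6 libraries. The same relation was present within single embryos and took both signs. When each gene's log2 level was set against its mean in the other 5 embryos, the correlation with GC content over the 9 genes was -0.94 in Bahd1-KO replicate 1, -0.90 in Bahd1-WT replicate 1 and -0.79 in Bahd1-KO replicate 3. It was 0.83 in Bahd1-KO replicate 2, and 0.92 in both Bahd1-WT replicate 2 and Bahd1-WT replicate 3. Embryos of both genotypes stood on each side: 2 of the 3 with a negative sign were Bahd1-KO and 2 of the 3 with a positive sign were Bahd1-WT.

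In Bahd1-KO replicate 1, for example, Nrxn2 and Nlgn2 stood at -1.03 and -0.56 relative to the other embryos on the log2 scale, and Lrrtm2 and Nlgn1 at 0.59 and 0.53. In Bahd1-WT replicate 2, Nrxn2, Nlgn2 and Lrrtm1 lay 1.54, 1.00 and 0.73 above, and the other 6 genes between 0.00 and 0.21 above. The pattern was not particular to these genes. Over 13754 protein-coding genes the same correlations were -0.64, 0.47 and -0.19 across Bahd1-KO replicates 1 to 3 and -0.38, 0.60 and 0.55 across Bahd1-WT replicates 1 to 3. The 576 protein-coding genes with a GC content of 60% or more had a median log2 level of -0.95 in Bahd1-KO replicate 1 and 0.88 in Bahd1-WT replicate 2, relative to the other embryos. In Bahd1-KO replicate 3, where this group stood at -1.18, Nrxn2 and Nlgn2 stood at -2.61 and -1.81. The 827 protein-coding genes with a GC content under 40% stood at 0.16 in that embryo. Nlgn1, Lrrtm2 and Lrrtm4, of like GC content, stood at -0.64, -0.78 and -1.19 there, well below that median.

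After a lowess correction for the GC content of genes in each embryo, chosen after the data were seen, the log2 fold change of Nrxn2 was -0.47 (SE 0.280) and that of Nlgn2 -0.13 (SE 0.181). For Lrrtm2 and Lrrtm4, at the other end of the range, it became -0.37 (SE 0.281) and -0.46 (SE 0.353). All 9 genes remained below 0 with adjusted p from 0.651 to 0.964 (edgeR), while the median over all genes moved from 0.06 to 0.22. The correction curve kept the overall level of each embryo and was applied on top of the TMM factors. These values therefore reflect more than GC content, and the part of each was not tested. Adding the same correction to the fit without Bahd1-KO replicate 3 gave 8 of 9 below 0, with a median of -0.10 against -0.04 over all genes.

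The genes whose profile over the 6 embryos was most like that of a member were sought among 13745 protein-coding genes, by the root mean square (r.m.s.) difference of centred log2 levels. For the members of high GC content these were Rusc2 for Nrxn2 (r.m.s. difference 0.0842), Slc38a3 for Nlgn2 (0.03998) and Zfp580 for Lrrtm1 (0.0425), with GC contents of 60.9, 54.998 and 64.96%. At the low end they were Rabgap1l for Nlgn1 (0.0488) and Kantr for Lrrtm2 (0.0589), with GC contents of 38.0 and 37.5%. Akap6, Fam117b, Gpr61 and Wdfy1 were nearest to Nrxn3, Nlgn3, Lrrtm3 and Lrrtm4, at differences of 0.0262, 0.0534, 0.0534 and 0.0323 and GC contents of 43.8, 47.5, 51.4 and 45.6%. The members' own r.m.s. deviations from their means ran from 0.21 for Nrxn3 to 1.20 for Nrxn2.

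**Figure D3:**
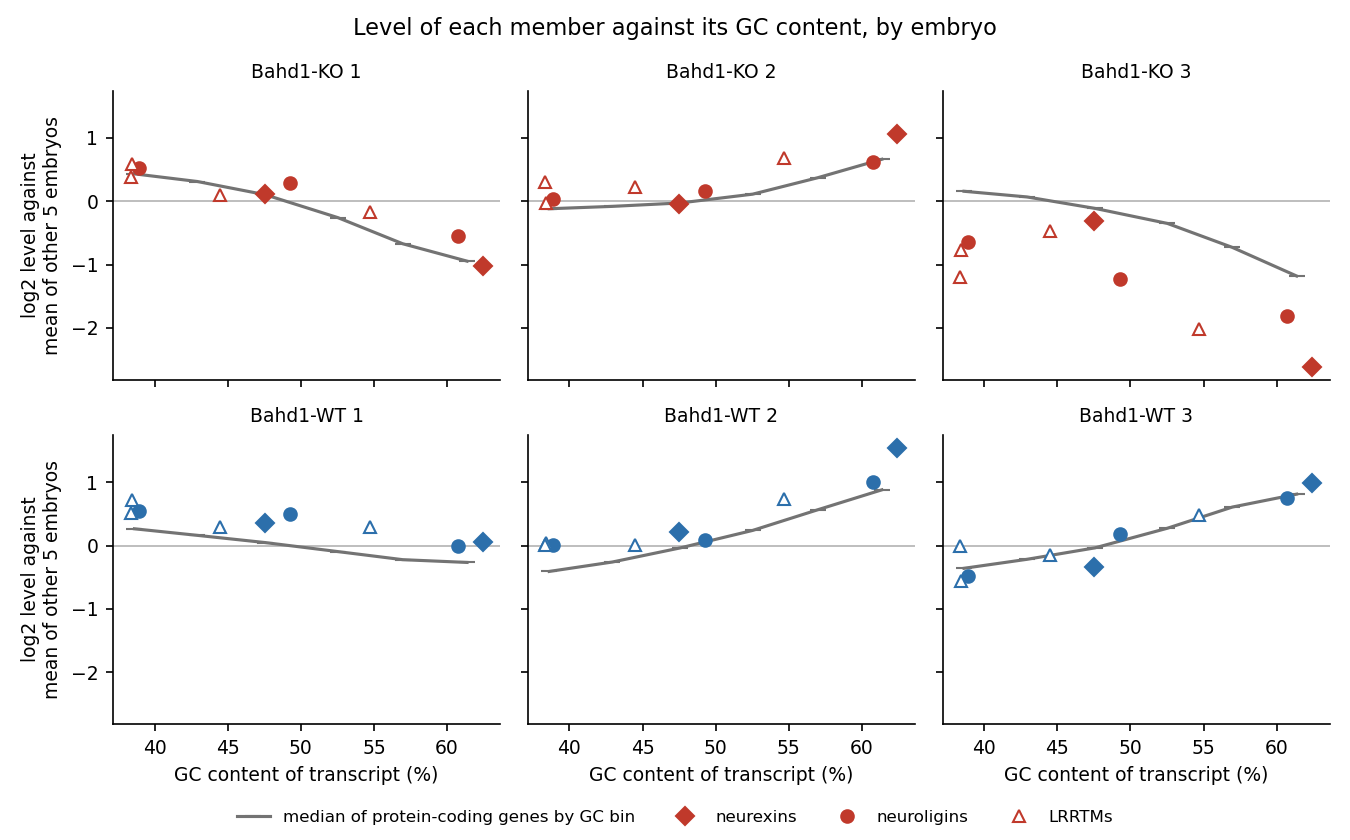
Log2 level of each of the 9 genes against the mean of the other 5 embryos, plotted against the GC content of its transcript, with 1 panel per embryo. The grey line joins the medians of 13754 protein-coding genes in 6 bins of GC content. It slopes down in replicate 1 of both genotypes and in Bahd1-KO replicate 3 and up in the other 3 embryos, and the members slope the same way. In Bahd1-KO replicate 3 the members also lie lower than the medians of genes of like GC content.

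Shares within a family do not change with the total of a library, but the members of each family differ in GC content. Nrxn3 made up 70.9, 40.04 and 82.8% of the summed level per kb of Nrxn2 and Nrxn3 across Bahd1-KO replicates 1 to 3 and 60.3, 37.1 and 37.2% across Bahd1-WT replicates 1 to 3. This share was highest in the embryos with a negative GC correlation, Bahd1-KO replicates 1 and 3 and Bahd1-WT replicate 1. The part of GC content in the shares was not tested. The genotypes overlapped, with a mean difference of 19.7 percentage points (exact two-sided permutation test, p = 0.2, adjusted p = 0.32 over 8 shares). This design cannot give a p below 0.1. The difference was 10.6 points without Bahd1-KO replicate 3 and 31.98 without Bahd1-KO replicate 2. Nlgn2 made up the largest part of the neuroligin level in every embryo, at 50.1, 70.3 and 51.3% across the Bahd1-KO embryos and 56.3, 75.2 and 74.1% across the Bahd1-WT embryos, a difference of -11.3 points (exact permutation p = 0.2, adjusted p = 0.32), which was -8.36 without Bahd1-KO replicate 3, -17.8 without Bahd1-KO replicate 2 and -17.4 without Bahd1-WT replicate 1. The share of Nlgn1 ranged from 9.65% in Bahd1-WT replicate 3 to 26.8% in Bahd1-KO replicate 3. Among the LRRTMs, Lrrtm2 held a larger share than Lrrtm1 in every embryo but Bahd1-WT replicate 3, where Lrrtm1 held 32.5% and Lrrtm2 30.6%. Lrrtm1 and Lrrtm2 held 12.8% and 45.1% in Bahd1-KO replicate 3, and 20.6% and 45.1% in Bahd1-WT replicate 1. Lrrtm4 kept nearly the same share, between 14.01 and 16.7%, in all 6 embryos. None of the 8 shares passed, with adjusted p from 0.32 to 0.9 (exact permutation).

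**Figure D4:**
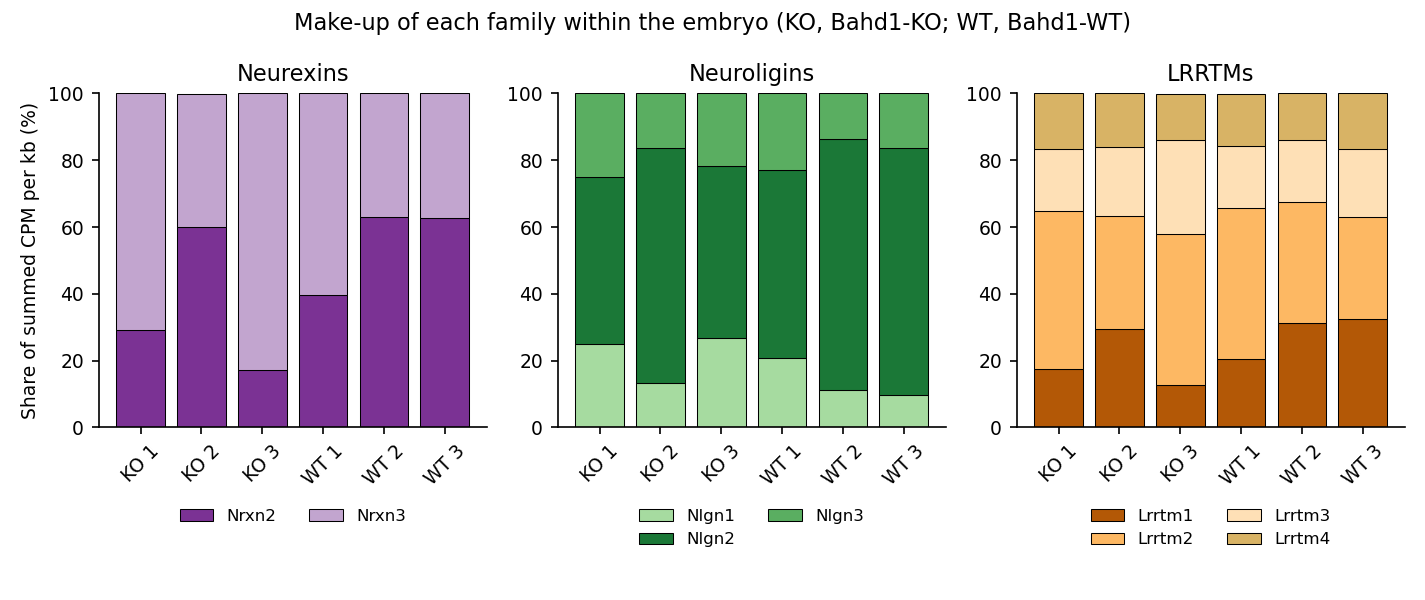
Share of each member in the summed CPM per kb of its family (Nrxn2 with Nrxn3, Nlgn1 to Nlgn3, Lrrtm1 to Lrrtm4), as stacked bars from 0 to 100% for each embryo (KO, Bahd1-KO; WT, Bahd1-WT). The neurexin panel alternates between embryos in which Nrxn3 makes up 60.3 to 82.8% (replicate 1 of both genotypes and Bahd1-KO replicate 3) and 37.1 to 40.04% (the other 3).

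Because neuron markers were low in Bahd1-KO replicate 3, each gene was also set against the median log2 level of the 10 neuron markers in the same embryo. The Bahd1-KO minus Bahd1-WT difference of this log2 ratio then lay above 0 for 8 of 9 genes, between 0.32 for Nlgn2 and 1.25 for Nlgn1, and at -0.14 for Nrxn2. In Bahd1-KO replicate 3 Nrxn3 stood 0.65 above the neuron markers, while the other 5 embryos had log2 ratios between -2.57 and -1.51. The exact permutation test gave p from 0.2 to 0.7 (adjusted p from 0.3 to 0.7 over 9 genes). It cannot give a p below 0.1 in this design, so no difference could have passed 0.05. Without Bahd1-KO replicate 3 the differences were -0.34 for Nrxn2, -0.10 for Nlgn2 and 0.15 to 0.57 for the other 7.

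The wider trans-synaptic adhesion machinery was described through 88 further genes in 11 lists. All 88 were tested, and 0 were called higher and 0 lower (adjusted p from 0.696 to 0.999, edgeR), against 0.00404% of all genes tested. Below 0 lay 69 of 88, against 46.2% of all genes, with a median log2 fold change of -0.28 against 0.06. Without Bahd1-KO replicate 3, 53 of 88 lay below 0, against 50.8% of all genes, and the median was -0.07 against -0.01. The counts by list that follow have the same background. Genes named here have the highest or the lowest mean level per kb of their list, and their fold changes follow in both fits, first with all 6 embryos and then without Bahd1-KO replicate 3.

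Of 12 secreted neurexin ligands (neurexophilins, cerebellins and C1q-like proteins), 10 lay below 0 with all embryos and 7 without Bahd1-KO replicate 3, with medians of -0.36 and -0.09. Cbln1, a cerebellin that binds neurexins, had 17.7 ± 4.56 CPM per kb (SD, n = 6) and log2 fold changes of -0.33 and -0.11. C1ql2 had 1.05 ± 0.418 CPM per kb, with -0.38 and -0.06. The list reached up to 3.79 for Cbln3, a value chosen after it was seen. Cbln3 had 94.9 CPM in Bahd1-KO replicate 3 against at most 5.18 CPM in Bahd1-WT, and without Bahd1-KO replicate 3 it stood at -1.20. Of 10 other neurexin partners, 8 lay below 0 with all embryos and 10 without that embryo, with medians of -0.32 and -0.13. Clstn1, a calsyntenin that was the highest of them, had 75.6 ± 21.3 CPM per kb and log2 fold changes of -0.48 and -0.39.

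MDGA proteins cover the neurexin-binding face of neuroligins and so inhibit the pairing. Mdga1, with a GC content of 58.7%, had 8.82 ± 4.57 CPM per kb and log2 fold changes of -0.94 and -0.47. Mdga2, with 42.2%, had 4.38 ± 1.69 CPM per kb, and its fold change of -0.09 became 0.21 without Bahd1-KO replicate 3. Splicing factors that choose neurexin isoforms comprised 4 genes, of which 4 lay below 0 with all embryos and 1 without Bahd1-KO replicate 3, where the median turned from -0.29 to 0.09. Khdrbs1, which encodes SAM68, had 46.7 ± 9.15 CPM per kb and went from -0.08 to 0.11. Khdrbs2 had 2.88 ± 1.23 CPM per kb and went from -0.40 to 0.07.

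Intracellular scaffolds were split by side. Of 11 presynaptic scaffold genes 10 lay below 0 with all embryos and 8 without Bahd1-KO replicate 3, with medians of -0.42 and -0.22. Lin7c was the highest at 109 ± 38.8 CPM per kb, and its log2 fold change turned from -0.15 to 0.20. Lin7b was the lowest at 0.834 ± 0.425 CPM per kb, with -0.63 and -0.33. Of 13 excitatory postsynaptic scaffold genes 9 lay below 0 in either fit, with medians of -0.31 and -0.19. Dlg3, which encodes SAP102, had 21.1 ± 2.80 CPM per kb, with -0.21 and -0.08, and Dlgap2 had 1.49 ± 0.435 CPM per kb and turned from 0.05 to -0.19. The inhibitory scaffold gene Gphn (gephyrin) had 23.9 ± 4.19 CPM per kb, and its log2 fold change turned from -0.16 to 0.00780.

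Parallel adhesion systems were listed as well. Of 12 genes for LAR-type receptor phosphatases and their ligands, 6 lay below 0 with all embryos and 3 without Bahd1-KO replicate 3, with medians of -0.01 and 0.17. Ptprs was the highest at 23.0 ± 11.2 CPM per kb, with log2 fold changes of -0.88 and -0.54, and Il1rapl1 the lowest at 1.55 ± 0.455 CPM per kb, with 0.26 and 0.19. Other leucine-rich repeat adhesion genes lay below 0 in 10 of 11 cases with all embryos and 7 of 11 without that embryo. Lrrc4b had 30.4 ± 17.4 CPM per kb, with -0.93 and -0.45, and Flrt1 2.06 ± 0.404 CPM per kb, with -0.21 and -0.27. Of 8 SynCAM and teneurin genes, 8 and 5 lay below 0, with medians of -0.52 and -0.26. Cadm4 had 49.1 ± 26.2 CPM per kb, with -0.78 and -0.34, and Tenm1 had 6.52 ± 2.34 CPM per kb and turned from -0.18 to 0.07. Of the 3 alpha-catenin genes that host Lrrtm1, Lrrtm2 and Lrrtm3 in their introns, 1 lay below 0 with all embryos and 2 without Bahd1-KO replicate 3.

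The log2 fold changes of the partner genes were also counted by GC content. Among the 29 genes of 55% or more, 28 lay below 0 with all embryos fitted and 29 without Bahd1-KO replicate 3. Protein-coding genes of that GC content did so in 80.7% and 92.4% of cases. Among the 27 partner genes with a GC content under 45%, 16 lay below 0 with all embryos fitted. This was a larger share than the 25.7% of protein-coding genes of that GC content. Without Bahd1-KO replicate 3, 2 of 27 did, against 9.25%. The correlation of GC content with the log2 fold change over the 88 genes was -0.45, and -0.76 without that embryo, again as a description over genes that share their libraries.

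**Figure D5:**
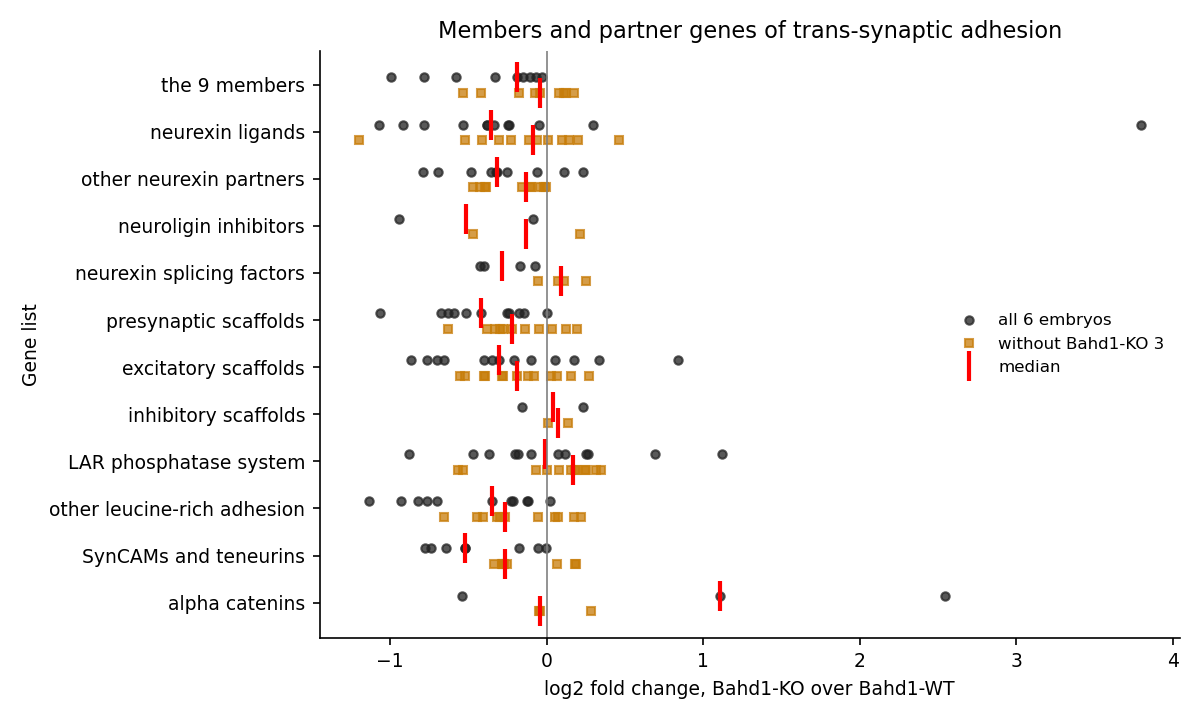
Log2 fold change (Bahd1-KO over Bahd1-WT) of the 9 members and of 88 partner genes in 11 lists, with black circles for all 6 embryos, orange squares without Bahd1-KO replicate 3 and red strokes for list medians. The orange squares gather between -1.20 and 0.46, and the 2 black circles above 2 are Cbln3 at 3.79 and Ctnna3 at 2.54.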

How the data were processed

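RNA of whole brains was compared between 3 Bahd1-KO and 3 Bahd1-WT embryos. The deposited values were raw counts of reads for each gene, without normalization. According to the methods and processing notes, the authors built stranded TruSeq libraries, sequenced single-end reads, trimmed them with cutadapt (1.11), aligned them to GRCm38 and counted exonic reads by strand with featureCounts (1.4.6-p3, Ensembl 92). STAR (2.5.0a) and TopHat2 are both named as aligners. Genes were annotated from GENCODE M21 (99.8% of genes matched).

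Where the 6 counts of a gene summed to 10 or more, edgeR's quasi-likelihood test (version 4.0.16, R 4.3.3) was run with TMM factors and genotype as the only term, two-sided, with Benjamini-Hochberg adjustment over 24739 genes. Replicates were separate embryos. The procedure was also run on simulated counts. These held neither a GC effect nor an embryo that stood apart, so that run does not bear on those features of the data. GC content was corrected by lowess (span 0.3) on GC in each embryo. The curve was fitted to log2 CPM before TMM scaling, relative to the mean of each gene. It kept the overall level of the embryo and was applied on top of the TMM factors. Alternatives used DESeq2 (1.42.0) and limma voom (3.58.1). The 9 genes, the partner and marker lists and the alternatives were chosen with earlier results of these data known. Named were Bahd1, the members, the partner gene of the highest and the lowest level in each list, any called partner gene, and for each member the protein-coding gene with the most similar profile. Some genes that this rule names are not reported here.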

Additional observations from a re-analysis of the deposited data

How the results depend on the processing

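Results were recomputed under 20 other fits, with 30 results and 360 values in all. No member was called in any of them. All 20 log2 fold changes of Nrxn2 (-2.21 to -0.23), Nrxn3 (-0.31 to -0.02), Nlgn2 (-1.46 to -0.03) and Nlgn3 (-0.55 to -0.000125) stayed below 0, with adjusted p from 0.235 to 1.00.

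The number of genes called over the whole table, 1 with edgeR, was 8 with DESeq2, 11 with DESeq2 without Bahd1-KO replicate 3, 6 with the likelihood ratio test and 6 with voom quality weights. It was 0 with the GC correction, 6 with it and without Bahd1-KO replicate 3, 4 without that embryo alone, and 0 without any single one of the other 5 (0 to 4 over single embryos left out). With the replicate number as a block it was 0, 16 with the block and without Bahd1-KO replicate 3, and 0 with the block and the GC correction. Where 0 genes were called, 995 (GC correction), 517 (replicate block) and 325 (both) had an unadjusted p under 0.05, and 154 to 4878 when an embryo other than Bahd1-KO replicate 3 was left out. Deviations from the group means correlated at 0.12, 0.18 and -0.09 for equal replicate numbers and at -0.36 to 0.25 for unequal ones. Such deviations sum to 0 within a genotype, so these values cannot decide whether the replicate numbers pair the embryos. Bahd1-KO replicate 2 correlated better with Bahd1-WT replicate 3 (0.25) than with its own number.

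Some signs changed among fold changes near 0. DESeq2 without Bahd1-KO replicate 3 gave 0.17 for Nlgn1, 0.12 for Lrrtm2, 0.0752 for Lrrtm3 and 0.11 for Lrrtm4. Voom quality weights gave 0.29, 0.27, 0.10 and 0.17 for the same genes. Upper-quartile factors gave 0.0632 for Nlgn1 and 0.0254 for Lrrtm3, filterByExpr 0.00722 for Nlgn1, the block without Bahd1-KO replicate 3 0.0525 for Lrrtm4, and the GC correction without it 0.00505 for Lrrtm1. With single embryos left out, Nlgn1 ranged from -0.28 to 0.18, Lrrtm2 from -0.42 to 0.17, Lrrtm3 from -0.22 to 0.0781 and Lrrtm4 from -0.40 to 0.11, above 0 without Bahd1-KO replicate 3 for all 4 and without Bahd1-WT replicate 1 for the first 3 of them. The longest transcript length turned the difference in the share of Lrrtm4 from 0.0453 to -0.0105 percentage points, and single embryos moved it between -0.72 and 0.81. Single embryos moved the other share differences without a change of sign, by over 1.5 times in places: Nlgn1 5.29 to 12.02, Nlgn3 1.44 to 6.16, Lrrtm1 -12.9 to -4.50, Lrrtm2 1.39 to 8.87 and Lrrtm3 0.472 to 5.22, the lowest Lrrtm3 value and the Lrrtm1 value nearest 0 being those without Bahd1-KO replicate 3. The difference relative to neuron markers ranged from -0.42 to 0.24 for Nrxn2 and from -0.10 to 0.63 for Nlgn2. The cause was not tested. Upper-quartile factors and total counts moved the median of all genes from 0.06 to 0.17 and -0.11. Counts of 313 or more per member and embryo leave counting error small beside the spread between 3 embryos, which limits every comparison here.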

Other observations

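Lrrtm1, Lrrtm2 and Lrrtm3 lie within introns of the alpha-catenin genes Ctnna2, Ctnna1 and Ctnna3, each on the strand opposite to its host, and reads were counted by strand. Alpha-catenins link cadherins to actin, and Ctnna2 is the neuronal form. Ctnna2 had 19335, 26344 and 1940 counts across Bahd1-KO replicates 1 to 3 and 30521, 26897 and 31339 across Bahd1-WT replicates 1 to 3, with a log2 fold change of -0.54 (SE 0.682, adjusted p = 0.790, edgeR). Ctnna1, which is widely expressed, had 6075, 7933 and 23218 counts across Bahd1-KO replicates 1 to 3 and 8250, 7727 and 11379 across Bahd1-WT replicates 1 to 3 (log2 fold change 1.11, SE 0.619, adjusted p = 0.696, edgeR). Ctnna3 had 39, 37 and 341 counts across Bahd1-KO replicates 1 to 3 and 58, 39 and 21 across Bahd1-WT replicates 1 to 3 (2.54, SE 1.10, adjusted p = 0.696, edgeR). In Bahd1-KO replicate 3, Ctnna1 and Ctnna3 were therefore the highest of the 6 embryos while the LRRTM genes in their introns were the lowest. Without that embryo the 3 host genes stood at -0.05, -0.05 and 0.28 on the log2 scale (Ctnna2, Ctnna1 and Ctnna3). Whether reads of host and nested gene were kept apart in every library was not tested.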
